A study of Mus musculus with 7 samples.

Results

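Hoxa5, Hoxa7, Hoxa9, Hoxa10, Hoxb2, Hoxb3, Hoxb4 and Hoxb5 are genes of the HOXA and HOXB clusters and were followed here in mouse long-term haematopoietic stem cells with and without a Calr mutation. The 8 genes were taken by symbol from the deposited table of normalized counts, in which they are 8 of 19649 genes. All 8 passed the filter on low values, and a further 12 HOX genes were in the table. The wild-type group held 4 libraries (Calr +/+, MxCre) and the mutant group 3 libraries (MxCre with the Calr genotype fl/fl, also written Calr del52/del52). Every animal carried MxCre, a Cre recombinase under an interferon-inducible promoter that is active in many cell types, and came from a CALR knockin line crossed with MxCre mice. All were given pI:pC, a double-stranded RNA mimic that switches the promoter on, and no drug. Cells were sorted as lineage-negative, Kit+, Sca-1+, CD48- and CD150+ 14 days after induction began. Ages and the number of animals behind a library are not given in the labels, so a p-value here measures the spread between libraries, which may be technical.

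HOX proteins are transcription factors that bind DNA through a homeodomain. The genes lie in clusters, and in the embryo their order along the chromosome matches the order in which they are switched on along the body axis. In blood, genes of the HOXA and HOXB clusters are active in stem and progenitor cells and are lowered as the cells mature. HOX proteins bind DNA with partners of the PBX and MEIS families, and their genes are kept active by KMT2A complexes and kept silent by polycomb complexes. Hoxa9 is a main driver of leukaemias with KMT2A fusions, Hoxb4 expands stem cells when overexpressed, and a Hoxb5 reporter has been used to mark long-term stem cells in mouse marrow.

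Reads counted ranged from 21325340 to 28710304 per library, and between 19189 and 19347 of the 19649 genes had reads in a given library. Calr itself ranged from 15922 to 18606 normalized counts among wild-type libraries and from 14239 to 15724 among mutant ones, and whole-gene counts do not separate the del52 allele from the wild-type one. On the first principal component (55.9% of variance) wild-type 3 and 4 lay at 84.6 and 83.0, while the other 5 libraries lay between -58.1 and -0.52. The titles of 4 libraries (wild-type 3, wild-type 4, mutant 1, mutant 2) are numbered in a shared series, and the labels do not state whether it marks a batch. The differences in normalized counts, though not those in FPKM, were therefore also computed without either wild-type pair and within each title series. Each of the 12 stem cell markers listed for the check was detected in every library, Procr (a surface receptor of stem cells) at 2273 to 4192 and Fgd5 at 327 to 2211 normalized counts. Kit, Ly6a (Sca-1) and Slamf1 (CD150) in that list encode markers used in the sort, so their detection is no independent check.

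The promoters of Hoxa9 and Hoxa10 are shown because these genes were among the most abundant of the 8 and because the transcripts of Hoxa10 differed in level by their start site. The sequences are from RefSeq (GRCm38.p6), run 5′ to 3′ on the minus strand of chromosome 6 and cover 250 bases before to 50 bases after a start site. Capitals mark a match on either strand to the GC box, spelled GGGCGG, to the CCAAT box, which its name spells, or to the TATA box, searched as TATAAA. The Hoxa9 promoter is at chr6:52227321-52227620, the promoter of the downstream Hoxa10 start at chr6:52234890-52235189, and the promoter of the upstream Hoxa10 start at chr6:52240805-52241104.
Hoxa9 promoter: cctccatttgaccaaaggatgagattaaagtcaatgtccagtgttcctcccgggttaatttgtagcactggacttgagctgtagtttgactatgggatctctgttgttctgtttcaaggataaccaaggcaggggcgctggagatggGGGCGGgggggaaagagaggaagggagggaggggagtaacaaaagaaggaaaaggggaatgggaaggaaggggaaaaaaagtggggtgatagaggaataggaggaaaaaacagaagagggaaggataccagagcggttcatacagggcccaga
Hoxa10 downstream promoter: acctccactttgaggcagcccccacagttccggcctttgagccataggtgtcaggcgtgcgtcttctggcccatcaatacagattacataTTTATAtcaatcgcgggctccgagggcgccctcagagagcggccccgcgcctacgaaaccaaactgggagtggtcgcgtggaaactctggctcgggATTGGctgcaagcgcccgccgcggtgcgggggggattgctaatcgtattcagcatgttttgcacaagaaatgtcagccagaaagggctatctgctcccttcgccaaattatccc
Hoxa10 upstream promoter: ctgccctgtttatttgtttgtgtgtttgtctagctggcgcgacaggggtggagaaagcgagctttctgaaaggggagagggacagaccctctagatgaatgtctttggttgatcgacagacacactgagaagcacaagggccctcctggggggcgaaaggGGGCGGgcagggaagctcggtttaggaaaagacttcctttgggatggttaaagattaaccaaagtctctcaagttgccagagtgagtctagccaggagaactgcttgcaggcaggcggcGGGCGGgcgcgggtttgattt

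With the start site as position 0, the Hoxa9 promoter held 1 GC box at -103. The upstream Hoxa10 promoter held GC boxes at -90 and 29. The downstream Hoxa10 promoter held no GC box, and had a CCAAT box at -64 and a TATA box at -160, both on the reverse strand. Of 32851 RefSeq promoters of 300 bases, 35.7% held a GC box, 37.4% a CCAAT box and 13.6% a TATA box, so each match is common. Searches on both strands for an E-box of the kind bound by USF factors (CACGTG, in 7.15% of promoters), a PBX-HOX site (TGATNNAT, 8.85%) and a CDX site (TTTATNA, 14.1%) found no match in these 3 windows. Promoter entries were matched for 5 of the 8 genes (Hoxa5, Hoxa7, Hoxa9, Hoxa10 and Hoxb4). A match in such a window describes the letters and does not show that a factor binds there.

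The microRNA miR-196b lies inside the Hoxa9 gene, on the same strand, at chr6:52230129-52230150. Its mature sequence is shown because Hoxa9-205, the retained-intron transcript of Hoxa9 described below, spans it; capitals mark the seed. Mature microRNAs were not measured here.
miR-196b-5p: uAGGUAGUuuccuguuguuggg

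Among HOX genes, an FPKM was read only for genes of the HOXA and HOXB clusters, so only these could be called on by it. Of 39 mouse HOX genes, 20 had a row in the count table: 9 of 11 HOXA, 8 of 10 HOXB, 3 of 9 HOXC and 0 of 9 HOXD genes. The 19 others are not analysed here. A gene was called on where its FPKM (fragments scaled to transcript length and sequencing depth, summed over the transcripts of the gene) was at least 1 in every library. By that rule 8 genes were on: Hoxa3, Hoxa5, Hoxa7, Hoxa9, Hoxa10, Hoxb2, Hoxb5 and Hoxb6. Hoxa6 was at 0.762 in wild-type 1 and above 1 in the other libraries. No FPKM was read for Hoxb3, Hoxb4 or the 3 HOXC genes, so that they could not be called on or off by it. Hoxb3 and Hoxb4 had reads in every library, as did Hoxc6, at 13.3 to 26.6 normalized counts, while Hoxc4 and Hoxc5 had 0 to 6.67. HOXA genes took 79.0% to 85.4% of the FPKM summed over the 9 HOX genes with a value, and Hoxa9 alone took 29.3% to 36.4%.

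Hoxa9 was the most abundant of the 6 members with an FPKM, at a mean of 60.1 ± 5.73 (SD, n = 7), and lay above Hoxa7 in 7 of 7 libraries. Hoxa7 (38.6 ± 9.71) and Hoxa10 (34.6 ± 6.73) could not be ordered, Hoxa7 being higher in 4 of 7 libraries. Hoxa10 was above Hoxb2 (20.3 ± 4.17) in 7 of 7 libraries, and Hoxb2 above Hoxb5 (10.8 ± 3.07) in 7 of 7. Hoxb5 and Hoxa5 (9.70 ± 1.74) could not be ordered, with Hoxb5 higher in 5 of 7 libraries. Dividing normalized counts by the exonic length of the gene model gave another order. On that scale Hoxa10 stood at 585, Hoxa9 at 548, Hoxa7 at 440.1, Hoxa5 at 265, Hoxb5 at 198, Hoxb2 at 66.2, Hoxb4 at 36.7 and Hoxb3 at 5.91 normalized counts per kilobase. Hoxb2 thus lay above Hoxb5 by FPKM and below it per kilobase of the model, with ranges of 43.5 to 90.1 and 128 to 266 that do not overlap. Hoxb3 was the lowest of the 8 per kilobase, at 4.20 to 7.82, and its mean was below the 8.07 of Hoxc6. The lengths used include bases shared with other genes, 52.9% of them for Hoxb3, 27.3% for Hoxb2 and 20.4% for Hoxa7. How reads in shared bases were counted is not stated. The per-kilobase levels of these genes, and the order of Hoxb3 and Hoxc6, are therefore uncertain.

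**Figure D1:**
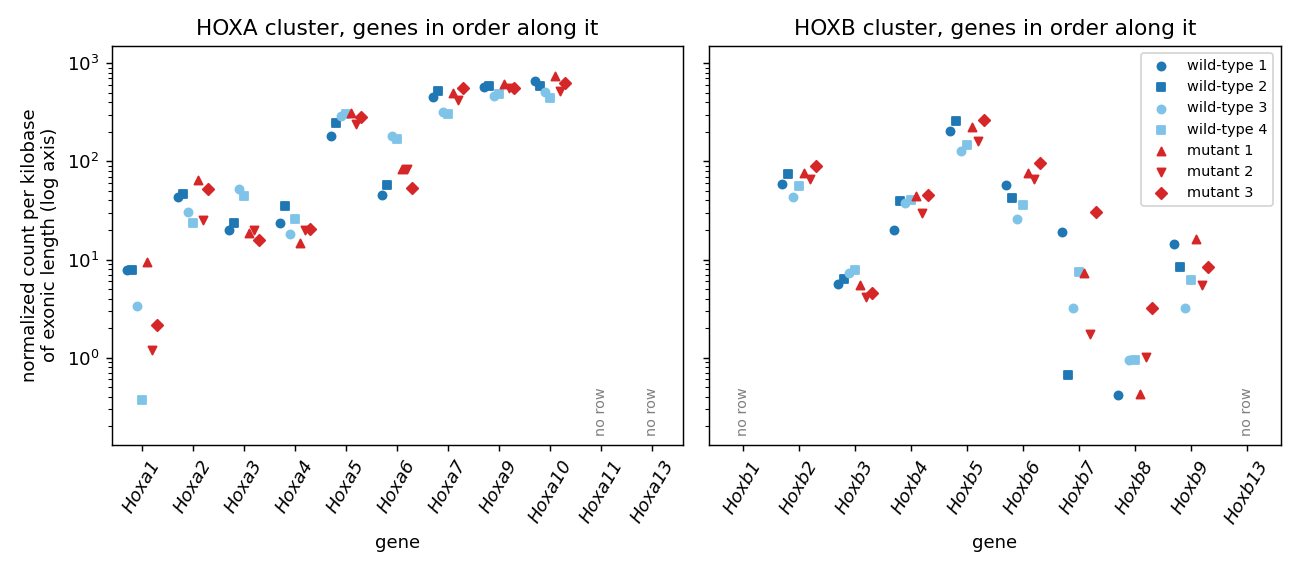
Levels of HOX genes in the order of the clusters, as normalized counts per kilobase of exonic length on a log axis, with 1 symbol per library, wild-type in blues and mutant in red. Hoxa5, Hoxa7, Hoxa9 and Hoxa10 sit at 179 to 748, Hoxb3 sits at 4.20 to 7.82, and genes without a row are marked; Hoxb8 at 0 in wild-type 2 is not drawn.

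None of the 8 genes passed the test between the genotypes in the fit over all 7 libraries. With limma on log2(normalized count + 1) and Benjamini-Hochberg adjustment over all genes, 0 of the 8 passed an adjusted p of 0.05, and 0% of the 16047 genes tested passed. At an unadjusted p under 0.05 there were 0 members and 1365 genes. With edgeR 0 members and 0 genes passed (1639 genes at an unadjusted p under 0.05), and with DESeq2 0 members and 107 genes (0.667%) passed. Of the 8 members, 7 had a positive difference (mutant minus wild-type), where 50.1% of all genes did, and their median was 0.22 on the log2 scale, beside 0.00 over all genes tested. The median depended on which wild-type libraries entered. With wild-type 3 and 4 left out it was 0.0087, and 4 of 8 genes were positive. With wild-type 1 and 2 left out it was 0.34.

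Among the HOXA members, Hoxa9 is a homeodomain factor needed for normal numbers of stem and progenitor cells (ENSMUSG00000038227.15, chr6:52223100-52231089, minus strand, GRCm38). Its normalized counts in the wild-type libraries, in order 1 to 4, were 3185, 3279.7, 2587 and 2679, and those of mutant 1 to 3 were 3413, 3133 and 3140.4. The groups overlapped, and wild-type 3 and 4 were the lowest libraries. Wild-type libraries averaged 2933 ± 350.2 (SD, n = 4) and mutant ones 3229 ± 159 (SD, n = 3), a log2 difference of 0.15 (SE 0.16) with an adjusted p of 0.651 in limma. Leaving out wild-type 3 and 4 gave -0.0025, and leaving out wild-type 1 and 2 gave 0.29. Hoxa9 varied least of the 8, with a coefficient of variation of 10.1% over the 7 libraries.

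Hoxa10, which acts in myeloid progenitors and lies next to Hoxa9 (ENSMUSG00000000938.11, chr6:52231197-52240854, minus strand), had 2164, 1925, 1673 and 1444 normalized counts in the wild-type and 2447, 1702 and 2032 in the mutant libraries. The groups overlapped, with mutant 1 the highest and wild-type 4 the lowest library. The log2 difference was 0.19 (SE 0.21, limma adjusted p 0.640). It fell to -0.0023 when wild-type 3 and 4 were left out and was 0.39 when wild-type 1 and 2 were.

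Hoxa7, which like Hoxa9 is highly expressed in leukaemias with KMT2A fusions (ENSMUSG00000038236.8, chr6:52214491-52221854, minus strand), had 1303, 1498, 913 and 867 normalized counts in the wild-type and 1444, 1218 and 1617 in the mutant libraries. Wild-type 3 and 4 were below all other libraries, and wild-type 1 and 2 lay within the mutant range. The means were 1145 ± 306 and 1426 ± 200, a log2 difference of 0.35 (SE 0.24, limma adjusted p 0.544). Hoxa7 passed in 2 of the 25 alternative fits, both of which set the mutant libraries against wild-type 3 and 4. Without wild-type 1 and 2 its log2 difference was 0.67 (SE 0.17, limma adjusted p 0.0150), in a fit that called 42.6% of all genes and 19.7% as higher. Within the shared title series it was 0.58 (SE 0.16, limma adjusted p 0.0242), where 37.5% of all genes passed and 16.4% were higher. Without wild-type 3 and 4 it was 0.02, with 0.318% of all genes called. Among the fits in which 0 members passed, 6.37% of genes passed outside the shared title series, 22.4% with the title series as a covariate and 0.791% with a slope on exonic length as a covariate. Of the exonic bases of Hoxa7, 20.4% are shared with the antisense gene Hoxaas3, and the libraries were unstranded, so reads there cannot be told apart.

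Hoxa5, known for its part in lung, skeletal and blood development (ENSMUSG00000038253.6, chr6:52201754-52204587, minus strand), had 336, 461, 539 and 569 normalized counts in the wild-type and 590.1, 448 and 538 in the mutant libraries. The groups overlapped, and wild-type 1 was the lowest library. The log2 difference was 0.16 (SE 0.24, limma adjusted p 0.726). Its pattern over the wild-type pairs was opposite to that of Hoxa7, Hoxa9 and Hoxa10, with wild-type 3 and 4 above wild-type 1 and 2 by 0.49 on the log2 scale, where Hoxa7 was lower by 0.65. The difference of Hoxa5 without wild-type 3 and 4 was 0.41, and without wild-type 1 and 2 it was -0.08. Without wild-type 1 alone it was 0.0029.

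**Figure D2:**
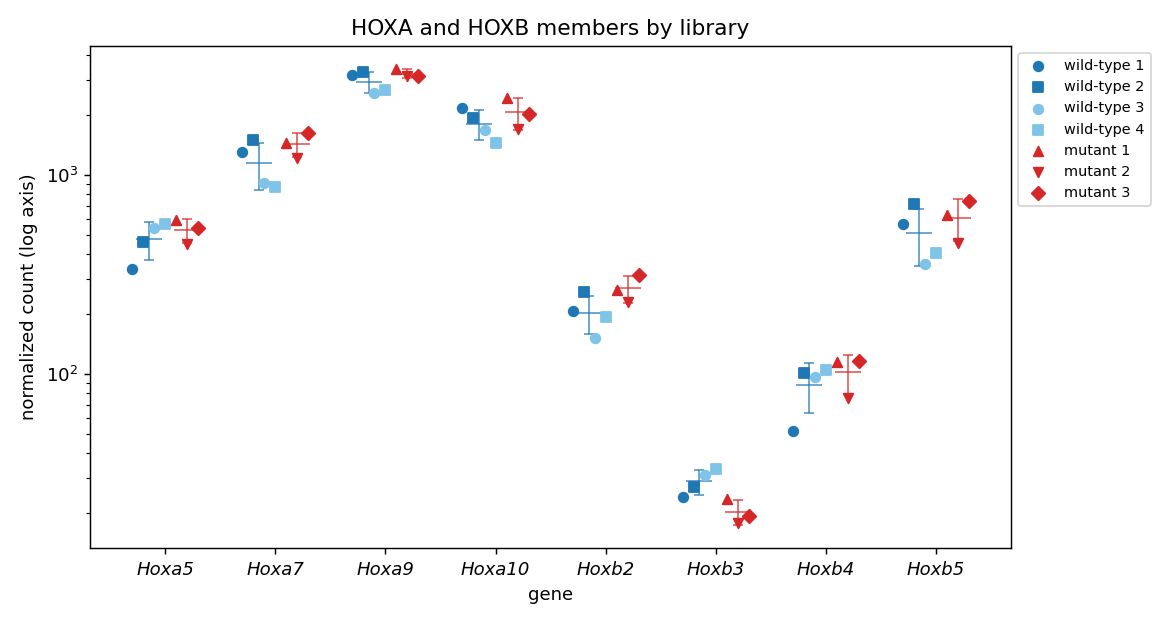
Normalized counts of the 8 members on a log axis, with 1 symbol per library (wild-type 1 to 4 in blues, mutant 1 to 3 in red) and lines for the group mean ± SD (n = 4 and n = 3). The groups overlap for 7 genes, and for Hoxb3 the 3 mutant libraries (17.9 to 23.6) lie below the 4 wild-type ones (24.0 to 33.3).

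Among the HOXB members, Hoxb5, the gene of the stem cell reporter, lies at chr11:96303336-96306121 (plus strand, ENSMUSG00000038700.4). It had 566, 717, 355 and 407 normalized counts in the wild-type and 629, 454 and 741 in the mutant libraries. Mutant 3 was the highest and wild-type 3 the lowest, and the groups overlapped. The means were 511 ± 164 and 608 ± 145, a log2 difference of 0.28 (SE 0.30, limma adjusted p 0.643). The wild-type pairs differed by 0.74 on the log2 scale, wild-type 3 and 4 being lower, which is more than the difference between genotypes. Between the genotypes it was -0.096 when wild-type 3 and 4 were left out and 0.65 when wild-type 1 and 2 were.

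Hoxb4, used to expand stem cells (ENSMUSG00000038692.8, chr11:96318267-96321638, plus strand), had 51.3, 101, 95.9 and 104 normalized counts in the wild-type and 114, 75.9 and 116 in the mutant libraries. Wild-type 1 was the lowest library and the groups overlapped. Wild-type 1 rests on 47 reads (exact Poisson 95% interval 34.5 to 62.5) and wild-type 2 on 97 (78.7 to 118), and these intervals cover counting error only. The log2 difference was 0.24 (SE 0.33, limma adjusted p 0.714), and 0.0015 without wild-type 1. It was 0.47 when wild-type 3 and 4 were left out and 0.0059 when wild-type 1 and 2 were.

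Hoxb2, whose product acts in hindbrain patterning and is also present in blood progenitors (ENSMUSG00000075588.6, chr11:96350525-96354012, plus strand), had 206, 258, 152 and 194 normalized counts in the wild-type and 263, 229 and 314 in the mutant libraries. Mutant 3 was the highest and wild-type 3 the lowest library, and the groups overlapped. The means were 202 ± 43.6 and 269 ± 42.7, a log2 difference of 0.42 (SE 0.25, limma adjusted p 0.538). It was 0.21 when wild-type 3 and 4 were left out and 0.63 when wild-type 1 and 2 were. Hoxb2 shares 27.3% of its exonic bases with the antisense gene Hoxb3os.

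Hoxb3 was the only one of the 8 that was lower in the mutant libraries and whose groups did not overlap. It had 24.0, 27.0, 30.9 and 33.3 normalized counts in the wild-type and 23.6, 17.9 and 19.3 in the mutant libraries (ENSMUSG00000048763.11, chr11:96323326-96347930, plus strand). Among all genes tested 9.57% had groups that did not overlap, 4.34% with the mutant below, and the 1 of 8 seen here has to be read against these shares. Wild-type 1 and mutant 1 are separated by 1 read, with 22 (13.8 to 33.3) and 21 (13 to 32.1) reads by the exact Poisson interval. The log2 difference was -0.49 (SE 0.31, limma adjusted p 0.539). It was negative in 23 of 23 alternative fits, between -0.65 and -0.33, and passed in 0 of them. These fits reuse the same libraries, and leaving libraries out cannot change the sign of a gene whose groups do not overlap. Of the exonic bases of Hoxb3, 52.9% are shared with Hoxb3os, which had the opposite direction. Hoxb3os had 45.9, 116, 60.9 and 57.4 in the wild-type and 151, 87.5 and 205 in the mutant libraries. The log2 difference of Hoxb3os was 1.08 (SE 0.41, limma adjusted p 0.538), and which of both genes a read came from could not be read from unstranded counts.

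**Figure D3:**
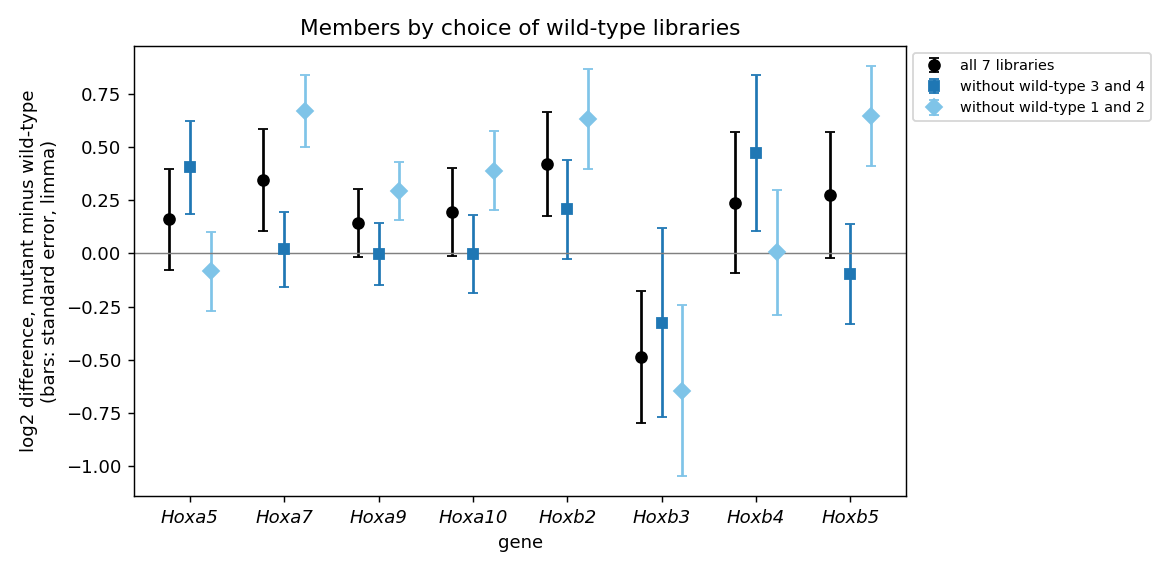
Log2 difference, mutant minus wild-type, of the 8 members over all 7 libraries and without either wild-type pair, with limma's standard error as bars and a line at 0. Hoxa7, Hoxa9, Hoxa10 and Hoxb5 sit within 0.10 of 0 without wild-type 3 and 4 and between 0.29 and 0.67 without wild-type 1 and 2, whereas Hoxa5 and Hoxb4 are higher without wild-type 3 and 4.

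The members did not move as one block over the libraries. The mean log2 deviation of the 8 from their gene means was -0.14, 0.15, -0.18 and -0.11 for the wild-type libraries in order, and 0.22, -0.15 and 0.20 for the mutant libraries. Mutant 2 thus lay among the wild-type libraries and wild-type 2 near mutant 1 and 3, and the SD of these means was 0.18. Of the 8 genes, 7 were above their mean in mutant 1, 2 in mutant 2 and 7 in mutant 3, and 7 were above it in wild-type 2. The closest pair was Hoxa7 and Hoxb5, whose deviations differed by a root mean square of 0.126 on the log2 scale over 7 libraries. Hoxa9 and Hoxa10 followed at 0.147 and Hoxa7 and Hoxb2 at 0.152, and the farthest pair was Hoxb3 and Hoxb5 at 0.579.

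**Figure D4:**
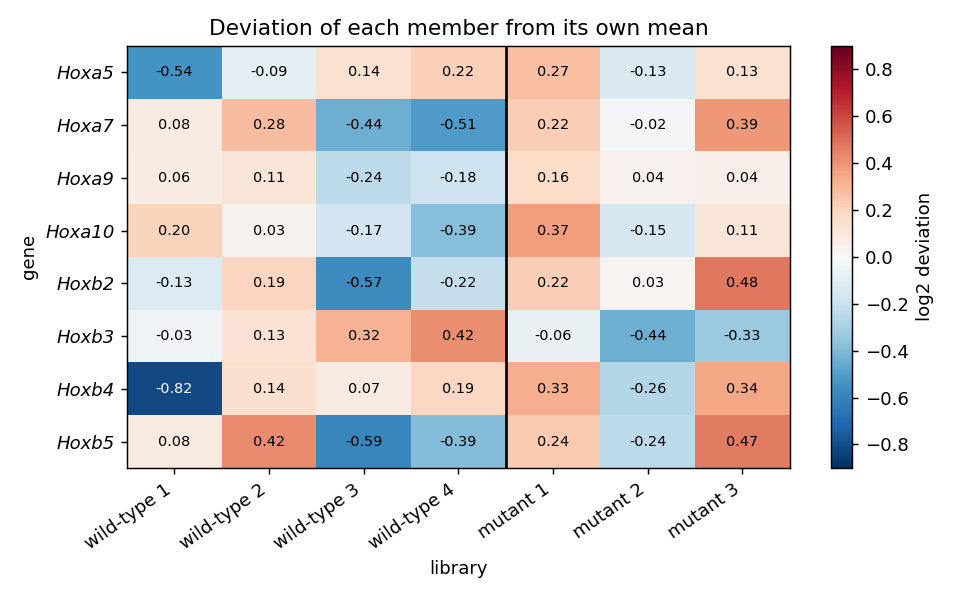
Log2 deviation of each member from its mean over the 7 libraries, with genes in rows, libraries in columns and the value in each cell. The deviations of 7 of 8 genes are above 0 in wild-type 2, mutant 1 and mutant 3, and those of 2 of 8 are above 0 in mutant 2.

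Among 11219 candidate genes with a mean of at least 100 normalized counts, those with deviations most like Hoxa9 over the 7 libraries were Glipr2 (root mean square difference 0.039), Ccm2 (0.043) and Trip10 (0.043). For Hoxb5 they were Kbtbd3 (0.055), Cdpf1 (0.064) and Nt5m (0.075). For Hoxb4, over 11220 candidates, they were Acvr1b (0.146), C130013H08Rik (0.149) and Spata1 (0.154). These likenesses over 7 points share libraries and depth and are given as a description.

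The FPKM table, made from the same libraries, gave like differences. For Hoxa7 the summed FPKM was 33.9 ± 9.69 in the wild-type (SD, n = 4) and 44.9 ± 6.10 in the mutant libraries (SD, n = 3), a difference of 0.43 in log2(FPKM + 1) with a two-sided exact permutation p of 0.229. For Hoxa9 it was 57.3 ± 6.07 and 63.9 ± 2.51, a difference of 0.16 (exact permutation p 0.114). The other 4 members with an FPKM had differences of 0.16 to 0.31 and exact permutation p of 0.2 to 0.486. The design has 35 splits, and the smallest p it allows is 0.0286.

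Hoxa9 RNA came mainly as Hoxa9-201 (21.0 to 29.3 FPKM over the libraries, 41.7% of the gene) and Hoxa9-202 (20.7 to 26.8, 37.7%). Hoxa9-205, the retained intron transcript that spans miR-196b, stood at 2.57 to 5.78. Hoxa10 was divided between Hoxa10-202, the protein-coding transcript from the downstream start (12.4 to 18.9, 46.0% of the gene), and the non-coding Hoxa10-203 (12.6 to 25.3, 50%). Hoxa10-201, which begins at the upstream start, took 3.99%, at 0.480 to 2.59. The ratio of Hoxa10-202 to Hoxa10-201 was 6.64 to 32.8 with a median of 11.1, so the downstream start was the higher in 7 of 7 libraries. Hoxa7 was shared by Hoxa7-202 (40.9%) and Hoxa7-201, while Hoxb2-201 held 95% of Hoxb2 and Hoxb5-201 held 92.2% of Hoxb5. Splitting FPKM among overlapping transcripts is an estimate of the authors' tool.

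**Figure D5:**
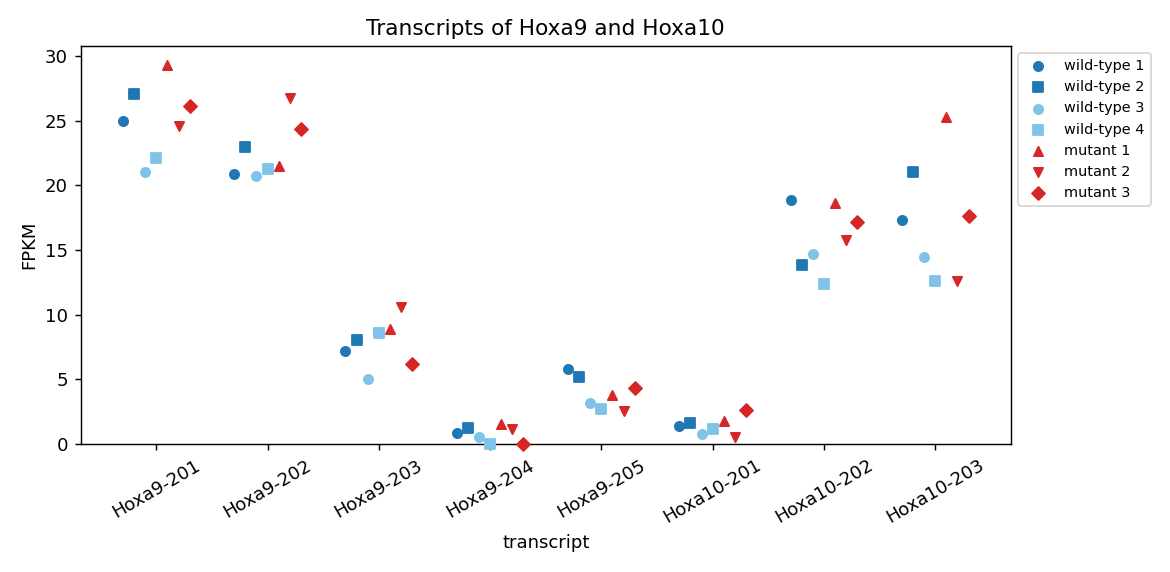
FPKM of the transcripts of Hoxa9 and Hoxa10 in each library, with 1 symbol per library, wild-type in blues and mutant in red. Hoxa10-202 and Hoxa10-203 lie at 12.4 to 25.3, and Hoxa10-201, from the upstream start, lies at 0.480 to 2.59.

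Of the other HOX genes, 9 were tested and 0 passed over all 7 libraries. Hoxb6, a neighbour of Hoxb5, had 113, 84.1, 50.9 and 69.9 normalized counts in the wild-type and 148, 129 and 191 in the mutant libraries, so that the mutant libraries lay above all wild-type ones. Among all genes 5.23% had the mutant above. The log2 difference of Hoxb6 was 1.01 (SE 0.32, limma p 0.0130, adjusted p 0.538), or 0.66 when wild-type 3 and 4 were left out and 1.36 when wild-type 1 and 2 were. By FPKM the Hoxb6 difference was 0.72 (exact permutation p 0.0571). In limma, Hoxb6 passed without wild-type 1 and 2 (adjusted p 0.00834, 42.6% of all genes called), within the shared title series (0.0183, 37.5%) and with that series as a covariate (0.0258, 22.4%). Hoxa3 had 119, 141, 313 and 267 in the wild-type and 112, 121 and 94.2 in the mutant libraries, a log2 difference of -0.83 (SE 0.37, limma adjusted p 0.538). It was -0.25 when wild-type 3 and 4 were left out and -1.40 when wild-type 1 and 2 were. Hoxa3 passed in limma in the same 3 fits as Hoxb6, with adjusted p of 0.00389, 0.00466 and 0.0289. Hoxa6 had 39.3, 49.9, 160.2 and 147 in the wild-type and 72.9, 73.2 and 47.1 in the mutant libraries, and its log2 difference of -0.38 became 0.50 without wild-type 3 and 4.

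Genes beside the clusters and antisense RNAs gave 0 called genes over all 7 libraries. Of 5 antisense genes tested, 4 were positive and the median log2 difference was 0.58, falling to 0.11 without wild-type 3 and 4 and rising to 1.06 without wild-type 1 and 2. They included Hoxb3os (1.08), Hotairm1 (0.63) and Hoxb5os (0.58). In the fit without wild-type 1 and 2, which called 19.7% of all genes higher and 22.8% lower, 3 of the 5 antisense genes were called higher, and 5 flanking genes were called higher and 2 lower. Hoxb3os also passed in limma when the title series was a covariate (adjusted p 0.0467, 22.4% of all genes called). Of 12 flanking genes tested, 8 were positive with a median of 0.19. The mutant libraries lay above all wild-type ones for 4 of them, Skap1, Copz2, Hibadh and Tax1bp1, the last being named after its values were seen, where 5.23% of all genes had the mutant above. Skap1, which encodes an adaptor protein of T cells, had 29.4 ± 15.9 and 62.0 ± 3.64, a log2 difference of 1.18.

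Partners and regulators of HOX proteins also gave 0 called genes over all 7 libraries. Of 10 cofactors tested, 3 were positive and the median log2 difference was -0.31. Meis1, the main partner of HOXA9 in blood, was abundant at 13660 ± 1125 in the wild-type and 11501 ± 1471 in the mutant libraries (-0.25). Pknox1 differed by -0.46, and Pbx2 and Tgif2 by -0.71 and -0.69. Meis3 was the only cofactor whose groups did not overlap (the mutant lay below for 4.34% of all genes), with 102 ± 16.8 and 55.5 ± 8.66, a log2 difference of -0.86 (SE 0.26, limma adjusted p 0.538). Without wild-type 3 and 4 the median of the cofactors was -0.05, and Meis3 was at -0.90. The fit without wild-type 1 and 2 called 3 cofactors lower and 0 higher, beside 22.8% and 19.7% of all genes.

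Of 23 chromatin regulators that keep HOX genes active, 4 were positive and the median was -0.27. Kmt2a and its partner Men1 had log2 differences of -0.27 and -0.30, and Kmt2d, Kmt2b and Kmt2c had -0.92, -0.68 and -0.53. The median of the list was 0.01 when wild-type 3 and 4 were left out and -0.69 when wild-type 1 and 2 were, where 15 of 23 were called lower and 1 higher, beside 22.8% and 19.7% of all genes. Of 30 polycomb genes, 8 were positive and the median was -0.31. The polycomb median was -0.02 when wild-type 3 and 4 were left out and -0.63 when wild-type 1 and 2 were. Without wild-type 1 and 2, 4 polycomb genes were called higher and 17 lower, beside the same shares of all genes. The core enzyme Ezh2 and the subunit Bmi1 had log2 differences of 0.04 and -0.12. Phf19, a partner of the polycomb enzyme, had groups that did not overlap, at 406 ± 35.2 and 233 ± 52.2, a log2 difference of -0.82 (SE 0.22, limma adjusted p 0.538), and it was -0.80 without wild-type 3 and 4. Jarid2 and Asxl1 also had the mutant below all wild-type libraries (-0.86 and -0.77), which makes 3 of 30 beside 4.34% of all genes, and were at -0.24 and -0.18 without wild-type 3 and 4.

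Of 15 tested genes of retinoic acid signalling and other upstream factors, 7 were positive and the median was -0.19. The median was 0.06 when wild-type 3 and 4 were left out and -0.47 when wild-type 1 and 2 were. Aldh1a1, an enzyme that makes retinoic acid, had 2214 ± 276 and 3391 ± 585, a log2 difference of 0.61 (SE 0.19, limma adjusted p 0.538), with the mutant libraries above all wild-type ones. Rarb, a retinoic acid receptor, had 114 ± 31.5 and 179 ± 14.9 (0.69). Npm1, the gene of a nucleolar chaperone whose mutant form goes with high HOX levels in leukaemia, had a log2 difference of 0.68 and overlapping groups. Without wild-type 3 and 4, Npm1 was at 0.14, Rarb at 1.01 and Aldh1a1 at 0.65. Without wild-type 1 and 2, Npm1 was at 1.22, Rarb at 0.37 and Aldh1a1 at 0.57. Rad21, a cohesin subunit named after its values were seen, had the mutant libraries below all wild-type ones (-0.39). It was at -0.10 without wild-type 3 and 4 and at -0.68 without wild-type 1 and 2. The mutant lay above for 2 of the 15, Aldh1a1 and Rarb, and below for 1, beside 5.23% and 4.34% of all genes. Of 17 genes listed as targets of HOXA9 and MEIS1, 8 were positive and the median was -0.11. Without wild-type 3 and 4 that median was 0.09, and without wild-type 1 and 2 it was -0.32. Bcl2 and Cdk6, genes for survival and cell cycle entry, had log2 differences of -0.56 and -0.55 with the mutant libraries below all wild-type ones, and Id2, an inhibitor of helix-loop-helix factors, had 0.54 with the mutant above. That makes 1 of 17 above and 2 of 17 below, beside 5.23% and 4.34% of all genes.

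In bulk samples fewer cells of a type and less RNA per cell cannot be told apart, so the sums of other cell types' markers are given here. Summed over 12 neutrophil and monocyte genes, normalized counts were 45149.7 to 88927 among wild-type libraries, while mutant 1 to 3 had 49959.7, 10953 and 13138, and 6 of 12 of those genes had the mutant libraries below all wild-type ones, as 4.34% of all genes did. The list's median log2 difference was -2.16. Summed erythroid markers ranged from 34446 to 54274 among wild-type and from 55404 to 69234 among mutant libraries, and megakaryocyte markers were 6560.1 to 20048 and 5302.9 to 10899. Although the erythroid sum was higher in the mutant, 2 of the 8 genes were positive and their median log2 difference was -0.56. Of the 6 megakaryocyte genes, 3 were positive and 3 negative. The mutant lay below all wild-type libraries for 2 of the 6, beside 4.34% of all genes. These were Itga2b (-1.21) and Plek (-1.05), both named after their values were seen. The stem cell markers summed to 50692 to 97917 among wild-type and 50862 to 57004 among mutant libraries. Kit ranged from 2976 to 26511, with wild-type 3 and 4 the highest. Pax5, Cd3e, Cd3g, Gzma and Cdh5, markers of B, T, NK and endothelial cells, had no row among the genes analysed. Rows were present for 6 of 7 B cell, 3 of 6 T and NK cell and 4 of 5 endothelial and stromal markers. Among those present, Nkg7 had 759 to 2385, Cd79b 866 to 1770 and Kdr 37.1 to 214 normalized counts over the libraries. Mitochondrial reads made up 0.363% to 0.711% of a wild-type library and 0.683% to 1.17% of a mutant one. The part of these values in the HOX levels was not tested.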

How the data were processed

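RNA of long-term haematopoietic stem cells was sequenced in 4 wild-type and 3 mutant libraries; cDNA was amplified with SMART-Seq v4 and libraries were unstranded, per the labels' protocols. The submitters' processing notes name the build GRCm38 and the tools STAR 2.7.3a, FastQC 0.11.7, Cufflinks 2.2.1, HTSeq 0.6.1 and DESeq2 1.12.4, without options. The deposited gene table holds a signal that is the authors' normalized count, and 100% of values were whole multiples of 1 step per library within 0.01 reads, so whole reads were recovered. The second deposited table holds FPKM per transcript from the authors. Positions and exonic lengths came from GENCODE vM21 on GRCm38, which matched 97.9% of genes and 99.1% of transcripts.

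Genes with at least 10 normalized counts in at least 3 libraries (16047) entered a two-sided limma test (version 3.58.1, R 4.3.3) of log2(normalized count + 1), with limma's variance trend, Benjamini-Hochberg adjustment over all genes and a threshold of 0.05. A fold change on this scale understates that of low genes. edgeR 4.0.16 and DESeq2 1.42.0 on the recovered reads, other pseudocounts, filters and scalings, library weights, left-out libraries, the title series and a slope on exonic length were alternatives. FPKM differences were tested by an exact permutation test over 35 splits. The limma, edgeR and DESeq2 fits over all 7 libraries were also run on simulated reads. The simulation held no difference between the wild-type pairs, and the other alternatives were not run on it. Named genes were the 8 members, the other HOX genes that were on or mixed, the 3 genes of smallest p in each list, fixed names (among them Meis1, Pknox1, Kmt2a, Men1, Ezh2 and Bmi1) and, for Hoxa9, Hoxb4 and Hoxb5, the 3 genes most like each. The members and lists were chosen with earlier results of these data known. A gene that the rule names is not reported here.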

Additional observations from a re-analysis of the deposited data

Results flagged for a closer look

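Hoxb4 had 51.3 normalized counts in wild-type 1, well below the 95.9 to 104 of wild-type 2 to 4. The gap to the nearest wild-type library was 0.848 of the group's range, above Dixon's 95% critical value for 4 samples. This test was made on 45 groups, and chance alone passes about 1 group in 20. Without wild-type 1 the log2 difference of Hoxb4 was 0.0015, beside 0.24 with all 7 libraries, and it passed the threshold in neither fit.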

How the results depend on the processing

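No member passed in the fit over all libraries, and Hoxa7 was the only one to pass in any alternative, in the fits without wild-type 1 and 2 and within the shared title series. Over all genes, 0 passed in the fit over all 7 libraries and in every fit that left out 1 library, whereas 107 passed with DESeq2, 51 when wild-type 3 and 4 were left out, 6828 when wild-type 1 and 2 were, 6010 within the shared title series, 1022 outside it, 3597 with the title series as covariate and 127 with the slope on exonic length as covariate. The cause was not tested. The slope was 0.24 per log2 of exonic length in wild-type 3 and 4 and -0.18 to 0.01 in the other libraries. The fit outside the shared series has mutant 3 as its single mutant library and borrows the spread of the wild-type libraries for it. The median of the members was 0.0087 without wild-type 3 and 4, 0.025 with the length slope and 0.020 with the slope and the title series. Of the 197 member values under the alternatives, 13 changed sign and 2 newly passed.

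Without wild-type 3 and 4 the sign turned for Hoxa9 (-0.0025), Hoxa10 (-0.0023), Hoxb5 (-0.096), Hoxa6 (0.50), Pknox1 (0.038), Kmt2a (0.21), Men1 (0.088), Ezh2 (-0.25) and Bmi1 (0.030), and without wild-type 1 and 2 for Hoxa5 (-0.085). Within the shared series it turned for Hoxa5 (-0.11) and Hoxb4 (-0.098), and outside it for Hoxa9 (-0.041), Hoxa10 (-0.0062), Hoxa6 (0.087), Kmt2a (0.30), Kmt2b (0.038) and Ezh2 (-0.13). With the length slope it turned for Hoxa10 (-0.0051), Hoxb5 (-0.11), Hoxa6 (0.40), Pknox1 (0.049), Kmt2a (0.082), Men1 (0.088), Ezh2 (-0.21) and Bmi1 (0.084). With the slope and the title series it turned for Hoxa9 (-0.12), Hoxa10 (-0.27), Hoxb5 (-0.028), Hoxa6 (0.15), Kmt2a (0.15), Ezh2 (-0.12) and Jarid2 (0.069). With single libraries left out, Ezh2 ranged from -0.11 to 0.15 (-0.0037 without wild-type 4, -0.024 without mutant 3) and Bmi1 from -0.31 to 0.050, the highest being without mutant 3. Hoxb3 was not tested with the filter at 50, and no FPKM was read for Hoxb3 or Hoxb4. No paired analysis was possible because the titles share no number between the groups.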
